A study of Mus musculus with 8 samples.

Results

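Light-only barcodes were the cell barcodes that carried an immunoglobulin light chain, kappa (IGK) or lambda (IGL), and no heavy chain (IGH). They were found by counting the contigs of each barcode in all 8 libraries and keeping those with at least 1 IGK or IGL contig and no IGH contig. This gave 5770 of 52999 barcodes, of which 2560 of 28114 lay in KO libraries and 3210 of 24885 in WT libraries. They were set against the 40603 paired barcodes, 21896 KO and 18707 WT, which held exactly 1 heavy and 1 light contig. A cell without heavy-chain RNA and a barcode in which it was not captured cannot be told apart in these tables.

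The series studied Deltex-1 (Dtx1), a ubiquitin ligase linked to Notch signalling, in B cells of the germinal centre, the structure in a lymphoid follicle where receptors are mutated and the better binders are kept. KO was 4 libraries of Dtx1-/- and WT 4 libraries of Dtx1+/+ mouse spleen, all taken on day 10 after an immunization. Cells were enriched with beads carrying peanut agglutinin, a lectin that binds germinal-centre B cells, then sorted and put through droplet sequencing of B-cell receptor transcripts. The sources used here do not give the strain, age, immunogen or number of mice. Receptor libraries hold no Dtx1 transcript, so the deletion itself could not be checked in them.

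An antigen receptor of a B cell is built from heavy and light chains, each encoded by its own rearranged gene. A light chain joins a V to a J segment, and the junction, the third complementarity-determining region (CDR3), is the most variable stretch of the chain. In the germinal centre point mutations accumulate in the V segments of both chains, so that daughter cells of a clone carry related sequences. Heavy- and light-chain transcripts are captured and assembled separately for each barcode, and a unique molecular identifier (UMI) marks each captured RNA molecule.

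The tables hold receptor contigs alone, so the cell type could be checked in few ways. They held 0 T-cell receptor contigs. Very high immunoglobulin RNA is a mark of plasma cells. Between 0 and 7 light-only barcodes per library lay above the 99th percentile of light-chain UMIs of paired barcodes, which is 0 to 0.768% of them. A fixed part of paired barcodes exceeds that limit by definition, so it cannot show how common plasma cells were. The highest light-only counts were 5964 UMIs in WT replicate 3 and 2144 UMIs in WT replicate 1. Libraries held 5955 to 7334 barcodes, 11666 to 14732 contigs and 754954 to 1155339 UMIs. The UMIs did not overlap between genotypes, with 883091 to 1155339 over KO and 754954 to 765119 over WT libraries. Of 51304 distinct barcode sequences, 1671 occurred in 2 or more libraries, among them those of 354 light-only barcodes, but the same barcode sequence with the same light chain recurred in 14 cases, of which 2 involved a light-only barcode. Any 2 libraries of the same genotype shared 682 to 992 paired receptors, against 5 to 13 for 2 libraries of different genotypes. Nothing in the labels ties the libraries of a genotype to separate mice, so each SD and p-value measures the spread between libraries that share clones, and the comparison of KO with WT is one of 2 sets of cells.

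The CDR3 nucleotide sequences of the chains that the results turn on are given 5′ to 3′. Capitals run from the first base that fewer than 90% of the distinct chains of that V gene shared, to the end. They can start within V-encoded bases and so do not mark the junction itself. The IGKV10-96 chains with IGKJ1 and with IGKJ2, for instance, share their first capitals. A sequence is all in lower case where the V gene had fewer than 20 distinct chains. The opening set holds the 5 chains carried by most light-only barcodes in either genotype, which overlap in part.
IGKV14-111 with IGKJ5: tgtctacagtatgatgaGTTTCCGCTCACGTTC
IGKV14-111 with IGKJ2: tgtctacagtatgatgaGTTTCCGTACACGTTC
IGKV14-111 with IGKJ4: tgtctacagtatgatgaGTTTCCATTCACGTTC
IGKV10-96 with IGKJ1: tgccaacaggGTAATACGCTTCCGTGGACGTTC
IGKV10-94 with IGKJ1: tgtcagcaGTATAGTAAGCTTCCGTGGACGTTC
IGKV8-24 with IGKJ2: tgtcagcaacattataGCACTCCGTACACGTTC
IGKV1-117 with IGKJ1: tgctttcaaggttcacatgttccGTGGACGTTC
IGKV2-137 with IGKJ2: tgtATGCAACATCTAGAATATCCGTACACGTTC

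The next set holds chains with more light-only than paired barcodes in 1 genotype, seen in every library of a genotype and mostly with more than 10 UMIs. They were chosen after their values were seen.
IGKV4-58 with IGKJ1, KO: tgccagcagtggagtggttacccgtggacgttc
IGKV13-84 with IGKJ2, KO: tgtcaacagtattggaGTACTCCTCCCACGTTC
IGKV1-122 with IGKJ2, WT: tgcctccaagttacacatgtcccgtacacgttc
IGKV3-7 with IGKJ5, WT: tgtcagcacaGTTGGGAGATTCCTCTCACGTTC
IGKV3-10 with IGKJ1, WT: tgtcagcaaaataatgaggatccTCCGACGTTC

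The last set holds chains whose light-only barcodes all had few UMIs, also chosen after their values were seen. All but the IGKV1-122 chain came from 1 library each.
IGKV10-96 with IGKJ2, WT replicate 2: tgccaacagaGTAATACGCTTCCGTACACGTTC
IGKV6-17 with IGKJ1, WT replicate 1: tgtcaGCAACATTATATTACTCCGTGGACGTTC
IGKV1-135 with IGKJ1, WT replicate 1: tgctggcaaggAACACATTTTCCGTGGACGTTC
IGKV1-122 with IGKJ5, WT: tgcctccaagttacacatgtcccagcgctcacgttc

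Light-only barcodes held exactly 1 light chain each. Not 1 of the 5770 had 2 light contigs (0%). Among barcodes with 1 heavy chain and at least 1 light chain, 3236 had 2 light contigs, or 7.38% ± 0.29 (SD, n = 8 libraries). Heavy-only barcodes were alike in this, as each of the 1667 held 1 heavy contig. Barcodes with 2 contigs of 1 chain and none of the other thus do not occur in the tables, nor do barcodes with more than 2 contigs of a chain. Whether a step before deposition set this was not tested, so no p or counting error is given for it.

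The number of light-chain molecules split light-only barcodes into a low and a high class. The median was 10, 17, 23 and 18 UMIs in KO libraries 1 to 4, and 9, 8, 23 and 20 UMIs in WT libraries 1 to 4. Medians of the paired barcodes lay between 70 and 79 UMIs in KO and between 62 and 68 UMIs in WT libraries. Light-only barcodes were lower in 8 of 8 libraries, by 54.4 ± 7.71 UMIs on average (SD of the within-library differences, n = 8; exact sign-flip permutation p = 0.00781, adjusted p = 0.0141). The medians of KO and WT light-only barcodes overlapped and differed by 2 UMIs (exact two-sided permutation p = 0.8).

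**Figure D1:**
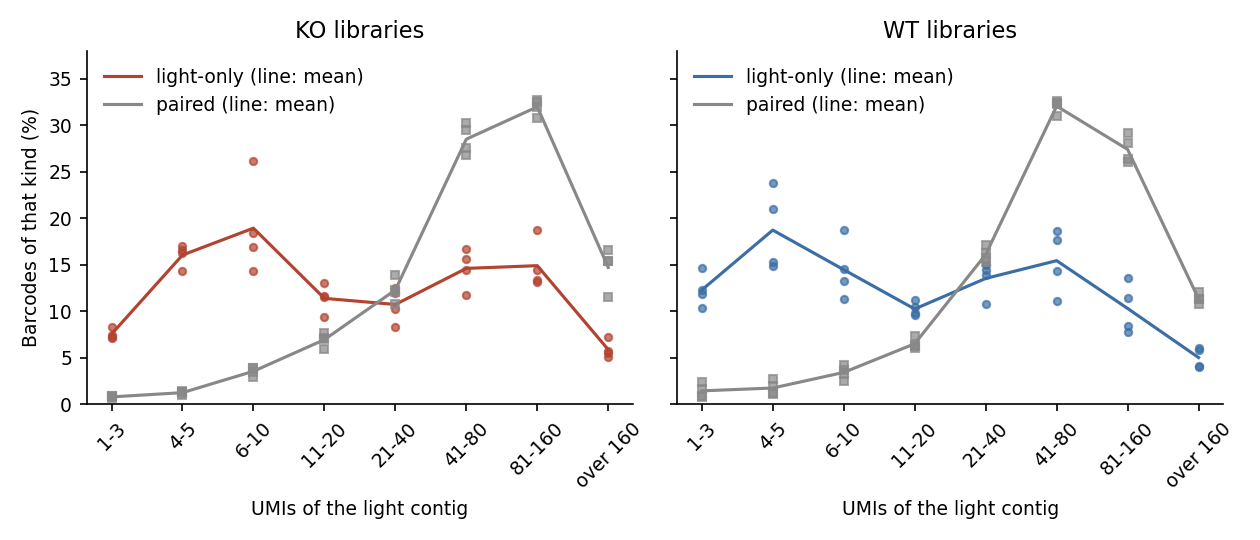
Share of barcodes (%) by the number of UMIs of their light contig, KO libraries on the left and WT libraries on the right, with light-only barcodes in colour and paired barcodes in grey. Points are libraries and lines their means. Light-only barcodes show 1 rise at 4 to 10 UMIs and another at 41 to 160 UMIs, where most paired barcodes lie (in WT replicate 2 it is at 21 to 40 UMIs).

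A limit of 10 UMIs, placed after the distribution was seen, separated these classes. At most 10 UMIs were found in 2582 light-only barcodes, 1098 KO and 1484 WT, and more than 10 in 3188, 1462 KO and 1726 WT. The low class made up 50.1, 42.6, 35.8 and 41.5% of light-only barcodes in KO libraries 1 to 4, and 52.0, 53.0, 36.5 and 40.4% in WT libraries 1 to 4. Paired barcodes had few of this kind, 4.92 to 6.26% in KO libraries and 4.45 to 8.85% in WT ones. The high class came close to the paired barcodes without reaching them, with medians between 51 and 65.5 UMIs over KO, and between 39 and 52 UMIs over WT libraries, against 74 to 84 UMIs and 68 to 71 UMIs for paired barcodes over the same limit. Reads per UMI of light-only and paired barcodes lay close together within each library, between 32.99 and 40.5 in KO and 39.4 and 52.3 in WT light-only barcodes, against 33.4 to 39.7 and 40.4 to 52.8 in paired ones.

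Light-only barcodes were a smaller share of KO than of WT libraries. They made up 10.3, 8.81, 8.996 and 8.23% of all barcodes in KO libraries 1 to 4, against 13.8, 13.7, 11.9 and 12.1% in WT libraries 1 to 4. The ranges did not overlap, and the 95% Wilson intervals of a library's share spanned 7.58 to 11.003% over the KO and 11.1 to 14.7% over the WT libraries (counting error only). The means were 9.08% ± 0.868 in KO and 12.9% ± 1.02 in WT (SD, n = 4 libraries each), a difference of -3.78 percentage points (exact two-sided permutation p = 0.0286, the smallest the 70 assignments allow). After adjustment over the 9 measures tested between genotypes the p was 0.0643, which fails the correction.

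Divided by UMIs, the high class was 5.19% ± 0.408 of KO and 6.95% ± 0.511 of WT barcodes, without overlap (exact permutation p = 0.0286), and the low class 3.89% ± 0.874 and 5.91% ± 1.52, with overlap (exact permutation p = 0.0857). Heavy-chain RNA of the paired barcodes moved with the genotype too, and was higher in KO. Its median lay between 37 and 41 UMIs over KO, and between 22 and 25 UMIs over WT libraries, and 2.54 to 3.43% of KO but 3.36 to 7.79% of WT paired barcodes had only 1 to 3 heavy-chain UMIs. UMIs per library were likewise higher in every KO than in every WT library. The parts of heavy-chain RNA level and of UMIs per library in the share of light-only barcodes were not tested.

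**Figure D2:**
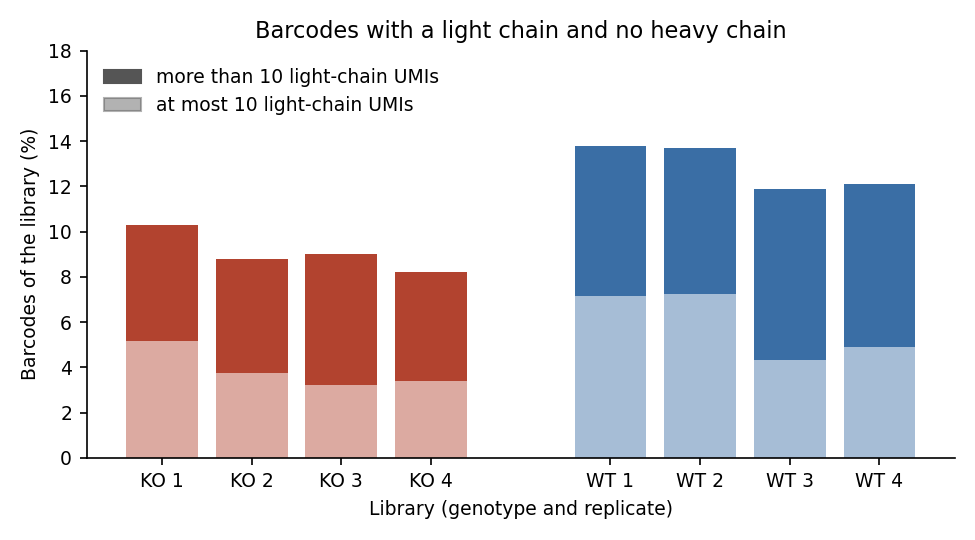
Light-only barcodes as a share of all barcodes (%) in each KO and WT library, with the dark part for more than 10 light-chain UMIs and the pale part for at most 10. Every KO library, at 8.23 to 10.3%, lies under every WT library, at 11.9 to 13.8%.

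The light chains of low-UMI light-only barcodes were often found again, base for base, in a heavy-bearing barcode of the same library. This was read on mutated chains, those whose IGKV segment differed from germline, because an unmutated chain can arise in unrelated cells. Of the 840 mutated light-only barcodes with at most 10 UMIs, 373 (44.4%) had a light chain identical from framework 1 to framework 4 in a barcode with a heavy chain of their own library. The share was 35.4, 35.1, 46.6 and 41.3% in KO libraries 1 to 4, and 47.2, 49.5, 54.2 and 33.7% in WT libraries 1 to 4. Any other library of the same genotype gave 0 to 9.52%. The own library exceeded the mean of the other 3 by 39.4 ± 8.91 percentage points (SD, n = 8; higher in 8 of 8 libraries, exact sign-flip permutation p = 0.00781).

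High-UMI light-only barcodes showed no excess that passed the test. Of the 932 mutated ones 29 (3.11%) had an identical chain in a heavy-bearing barcode of the own library, with 0 to 6.17% per library, and each other library gave 0 to 5.19%. The excess was 0.52 ± 2.58 percentage points (SD, n = 8; positive in 3 of 8 libraries, exact permutation p = 0.562). It depended on the limit: with the limit at 5 UMIs the excess of the high class was 8.61 percentage points (exact permutation p = 0.00781). The excess of the low class was larger than that of the high class in 8 of 8 libraries, by 38.9 ± 8.81 percentage points (exact permutation p = 0.00781). Paired barcodes with at most 10 light UMIs showed an excess too, 24.2 ± 7.74 percentage points, which was smaller than that of the low light-only class in 8 of 8 libraries (difference 15.2 ± 9.8, exact permutation p = 0.00781). Paired barcodes with more than 10 UMIs had an excess of 1.49 ± 0.897 percentage points, positive in 8 of 8 libraries. This comparison and its UMI limit were chosen after seeing the data.

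Light-only barcodes also matched each other within a library. In the low class 52 of 52 pairs of KO barcodes with an identical mutated light chain, and 296 of 302 pairs of WT barcodes, lay in 1 library. In the high class this was so for 1 of 7 KO and 1 of 10 WT pairs. The low class drew on fewer sequences, with 214 distinct chains in 257 mutated KO barcodes and 397 in 583 WT barcodes, against 339 in 345 and 578 in 587 in the high class.

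The heavy-bearing partners of low-UMI light-only barcodes often held few light-chain UMIs themselves. Where there was exactly 1 partner, 58 cases in KO and 200 in WT libraries, it had a median of 12 light UMIs in KO and 11 in WT, and 15.5 heavy UMIs in either. At most 10 light UMIs were found in 44.8% of these partners in KO and 48.0% in WT, against 5.58% and 6.64% of all paired barcodes. The partner had more light UMIs than the light-only barcode in 75.9% of the KO and 72.5% of the WT cases. No barcode sequence was a near copy of its partner's, since the 542 combinations differed at 5 or more of the 16 bases.

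**Figure D3:**
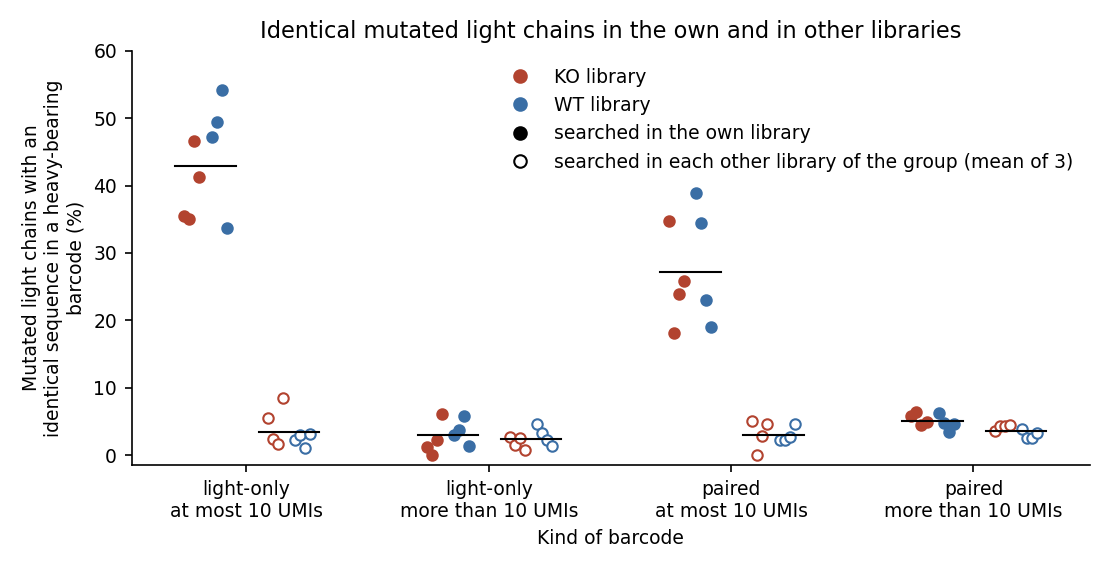
Share (%) of mutated light chains that were identical to one in a heavy-bearing barcode, for light-only and paired barcodes of at most and more than 10 light UMIs, with KO libraries in red and WT libraries in blue. Filled points search the own library, open points the other 3 libraries of the genotype (mean), and bars are means over 8 libraries, which are 42.9% and 3.44% for the low-UMI light-only barcodes.

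Chains with few UMIs from a single library are given as examples. The IGKV10-96 chain with IGKJ2 was carried by 6 light-only barcodes, all in WT replicate 2, with 3 to 6 UMIs each, 1 shared mutated V sequence and 1 paired barcode, in the same library, with 3 light UMIs. The IGKV6-17 chain with IGKJ1 was carried by 6 light-only barcodes of WT replicate 1, with 2 to 4 UMIs, and by 1 paired barcode of that library with 17 light UMIs. It was also carried by 1 WT barcode with 1 heavy and 2 light chains. The IGKV1-135 chain with IGKJ1 was carried by 5 light-only barcodes of WT replicate 1, with 2 to 6 UMIs, and by no barcode with a heavy chain. None of these chains was light-only in a KO library.

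Light-only barcodes carried more mutations than paired ones. Their IGKV segment differed from germline at a mean of 0.173, 0.161, 0.203 and 0.234% of bases in KO libraries 1 to 4, and 0.332, 0.396, 0.381 and 0.360% in WT libraries 1 to 4. Paired barcodes ranged between 0.106 and 0.112% over KO, and between 0.199 and 0.225% over WT libraries. Light-only barcodes exceeded the paired ones in 8 of 8 libraries, by 0.119 ± 0.0473 percentage points (SD, n = 8; exact sign-flip permutation p = 0.00781, adjusted p = 0.0141). Counting each distinct light chain once per library left a difference of 0.0103 (exact permutation p = 0.422), and the low-UMI class alone one of 0.0397 (exact permutation p = 0.156). Counting once raised the paired means from 0.109 to 0.216% in KO and from 0.214 to 0.401% in WT. It raised the light-only means from 0.193 to 0.219% and from 0.367 to 0.419%. A library held 4585 to 5712 paired but 528 to 912 light-only barcodes, and the 2 kinds were not brought to equal depth. Counts of distinct chains are thus no like-for-like comparison of them. In the high-UMI class the means were 0.184% in KO and 0.332% in WT light-only barcodes, against 0.107% and 0.201% in paired ones.

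In the comparison of genotypes the mutation of light-only barcodes was lower in KO. The means were 0.193% ± 0.0326 in KO and 0.367% ± 0.0277 in WT (SD, n = 4), without overlap (difference -0.174, exact permutation p = 0.0286, adjusted p = 0.0643, which fails the correction). The unmutated share was 77.3, 76.5, 75.6 and 71.8% in KO libraries 1 to 4 and 61.9, 60.8, 60.8 and 63.9% in WT libraries 1 to 4, again without overlap (difference 13.4 percentage points, exact permutation p = 0.0286, adjusted p = 0.0643). Paired barcodes showed the same order, with 84.6 to 85.7% unmutated in KO and 74.5 to 75.7% in WT. The excess of light-only over paired mutation was 0.0835 in KO and 0.153 in WT, a difference between genotypes that was not called (exact permutation p = 0.0571). Both UMI classes kept the order, with 0.206% in KO and 0.4% in WT in the low class, and 0.184% in KO and 0.332% in WT in the high class (exact permutation p = 0.0286 each).

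**Figure D4:**
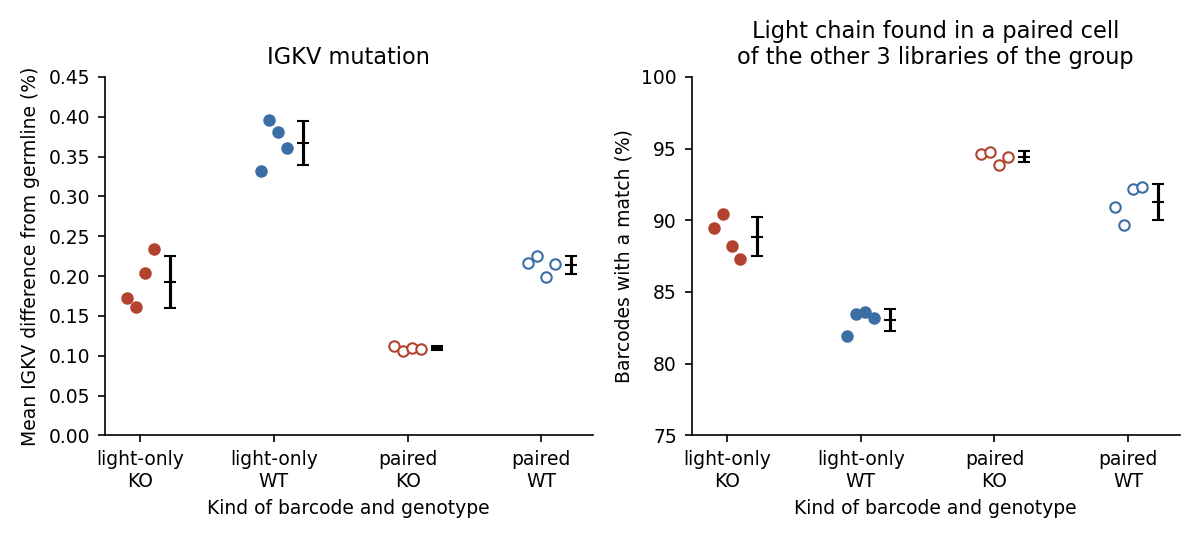
Left, mean difference of the IGKV segment from germline (% of bases); right, share (%) of barcodes whose light chain occurred in a paired barcode of the other 3 libraries of the genotype (axis from 75%). Points are libraries, KO in red and WT in blue, filled for light-only and open for paired, with mean ± SD beside them; light-only barcodes lie above the paired ones on the left and below them on the right.

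Most light chains of light-only barcodes matched those of clones with a heavy chain. A match was the same V gene, J gene and CDR3 nucleotides. Over all paired barcodes of the genotype, 2363 of 2560 KO light-only barcodes (92.3%) and 2844 of 3210 WT ones (88.6%) had at least 1. The match rarely pointed to 1 clone, since 153 KO barcodes (5.98%) and 308 WT barcodes (9.6%) matched exactly 1, whereas 65.9% in KO and 51.5% in WT matched 10 or more. A clone was defined by shared heavy and light V and J genes and a similar heavy CDR3. The median matched barcode had 23 clones to choose from in KO and 13 in WT. The reference was larger in KO, with 10327 clones against 7592 in WT, and its part in these differences was not tested.

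Matches were then sought only in other libraries, which leaves out the matches within a library. In the other 3 libraries of the genotype 89.5, 90.4, 88.2 and 87.3% of KO light-only barcodes had a match, and 81.9, 83.5, 83.6 and 83.2% of WT ones, with no overlap. The means were 88.8% ± 1.36 in KO and 83.0% ± 0.776 in WT (difference 5.81 percentage points, exact permutation p = 0.0286, adjusted p = 0.0643, which fails the correction). KO was searched in a larger reference, with 21896 paired barcodes in the genotype against 18707 in WT. The part of reference size in this difference was not tested. Paired barcodes matched more often, 94.4% ± 0.392 in KO and 91.3% ± 1.23 in WT. Light-only barcodes were lower in 8 of 8 libraries, by 6.91 ± 1.85 percentage points (exact permutation p = 0.00781, adjusted p = 0.0141). With each distinct chain counted once they were higher by 9.61 (exact permutation p = 0.00781). That count was not made at equal depth. In it the paired match fell to 71.5% in KO and 64.5% in WT, and the light-only match to 81.9% and 73.3%.

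Matches to the opposite genotype were nearly as frequent. Against 3 libraries of the opposite genotype 81.5% ± 1.09 of KO and 77.7% ± 2.06 of WT light-only barcodes had a match. The own genotype exceeded the opposite one by 7.39 ± 0.892 percentage points in KO and 5.33 ± 2.02 in WT (exact permutation p = 0.0857, not called). KO paired barcodes, the larger reference, were the own side for KO and the opposite side for WT. The excess was 6.36 ± 1.82 over the 8 libraries for light-only and 4.59 ± 0.864 for paired barcodes (higher in 7 of 8 libraries, exact permutation p = 0.0312, adjusted p = 0.0402). With each distinct chain counted once, again at unequal depth, light-only barcodes were lower in 8 of 8 libraries (difference -3.60, exact permutation p = 0.00781). Among barcodes with more than 10 UMIs the difference was -0.0642 (exact permutation p = 0.922). A match in neither genotype's libraries was found for 9.88% ± 1.55 of KO and 14.5% ± 1.33 of WT light-only barcodes, against 4.71% ± 0.464 and 7.49% ± 1.25 of paired ones. Identity of the whole chain was common among unmutated chains and rare among mutated ones. Of unmutated light-only barcodes 90.4% ± 1.25 in KO and 86.9% ± 2.71 in WT had an identical chain in the other libraries of the genotype, of mutated ones 4.11% ± 0.957 and 5.59% ± 1.52.

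The clonotypes that the authors deposited with the contigs rarely joined light-only barcodes to a heavy chain. Between 4.18 and 7.2% of light-only barcodes in KO and between 4.55 and 9.34% in WT libraries shared a deposited clonotype with a heavy-bearing barcode. Most others stood in a clonotype of their own. The deposited grouping could leave barcodes with the same light chain apart. In KO replicate 1 it put 698 of 750 light-only barcodes in a clonotype of their own, while the 2560 KO ones held 773 distinct chains. The share thus depends on how clonotypes were built, which was not examined.

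The light V genes of light-only barcodes differed from those of paired barcodes for 12 of 79 genes tested (15.2%, with 8.86% higher and 6.33% lower; edgeR quasi-likelihood test with library as a block, Benjamini-Hochberg p under 0.05). The median log2 fold change over the 79 genes was -0.08. IGKV14-111 (chr6:68256404-68256869, mm10), the gene most used by light-only barcodes, was 7.60, 7.74, 9.12 and 7.58% of them in KO libraries 1 to 4, and 6.58, 6.24, 7.21 and 7.72% in WT libraries 1 to 4. Among paired barcodes it was 3.08 to 3.84% in KO libraries and 3.58 to 3.99% in WT ones, so that each library's light-only share exceeded all paired shares. The log2 fold change was 1.03 ± 0.13 (SE; edgeR adjusted p = 1.13e-08).

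IGKV14-111 stood out in the high-UMI class. There it made up 11.6% ± 0.8293 of KO and 9.14% ± 0.767 of WT light-only barcodes, against 3.41% and 3.8% of paired barcodes over the same UMI limit. In the low class it was 3.23% ± 0.24 of KO and 4.19% ± 0.254 of WT light-only barcodes. Its chain with IGKJ5, the most frequent of KO, was carried by 18, 17, 17 and 19 light-only barcodes of KO libraries 1 to 4, which is 2.77% of them, and by 0.69% of KO paired barcodes. Its median was 87 UMIs, 67 of the 71 barcodes had more than 10, and 47 had 1 and the same unmutated V sequence.

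The other 6 genes called higher each made up a smaller share than IGKV14-111. IGKV4-58 was 1.11% ± 0.305 of KO and 0.275% ± 0.136 of WT light-only barcodes, against 0.103% and 0.0579% of paired ones (log2 fold change 2.98 ± 0.43, edgeR adjusted p = 2.52e-07). IGKV5-37 was 0.743% ± 0.237 in KO and 0.335% ± 0.135 in WT, against 0.109% and 0.0648% of paired ones (log2 2.57 ± 0.41, edgeR adjusted p = 1.6e-06). IGKV8-24 rose by 1.17 ± 0.21, IGKV3-7 by 1.06 ± 0.27 and IGKV1-133 by 1.31 ± 0.42 on the log2 scale (adjusted p-values of the same test 2.59e-05, 0.00372 and 0.0223). The call of IGKV1-133 ended without KO replicate 1, 2, 3 or 4 or WT replicate 4 (edgeR adjusted p = 0.059 to 0.0759). The last was IGKV14-126, which lies outside the naming rule and rose by 0.87 ± 0.31.

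The 5 genes called lower were led by IGKV2-137. It was 2.27, 0.929, 1.42 and 0.758% of light-only barcodes in KO libraries 1 to 4 and 3.18, 3.46, 2.4 and 3.17% in WT libraries 1 to 4, against 4.19 to 5.04% in KO and 7.13 to 8.31% in WT paired barcodes. The groups did not overlap within a genotype, and the log2 fold change was -1.48 ± 0.17 (edgeR adjusted p = 6.5e-10). Its chain with IGKJ2 was carried by 1.18% of WT light-only but 5.68% of WT paired barcodes. On the log2 scale IGKV4-50 differed by -1.95 ± 0.56, IGKV1-110 by -0.58 ± 0.16 and IGKV1-117 by -0.46 ± 0.14 (edgeR adjusted p-values 0.0107, 0.0102 and 0.0217), and IGKV8-27, outside the naming rule, had -0.67 ± 0.23. The call of IGKV1-117 ended without WT replicate 2 (edgeR adjusted p = 0.105). Other much-used genes were not called in any of the 3 tests of V genes. IGKV10-96 was 5.59% ± 1.32 of KO and 3.96% ± 1.05 of WT light-only barcodes, against 4.56% and 3.72% of paired ones. IGKV6-17, IGKV6-15, IGKV6-23, IGKV1-135 and IGKV12-44 each made up 1.56 to 3.804% of light-only barcodes as a mean of either genotype. With each distinct chain counted once per library, at unequal depth of the 2 kinds, 3 genes were called instead of 12. Of these 2 were shared, IGKV5-37 and IGKV4-50. IGKV14-111 then had a log2 fold change of 0.38 (edgeR adjusted p = 0.253) and IGKV2-137 one of 0.05 (edgeR adjusted p = 0.993). Among barcodes with more than 10 UMIs 12 genes were called too, of which 6 were shared.

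**Figure D5:**
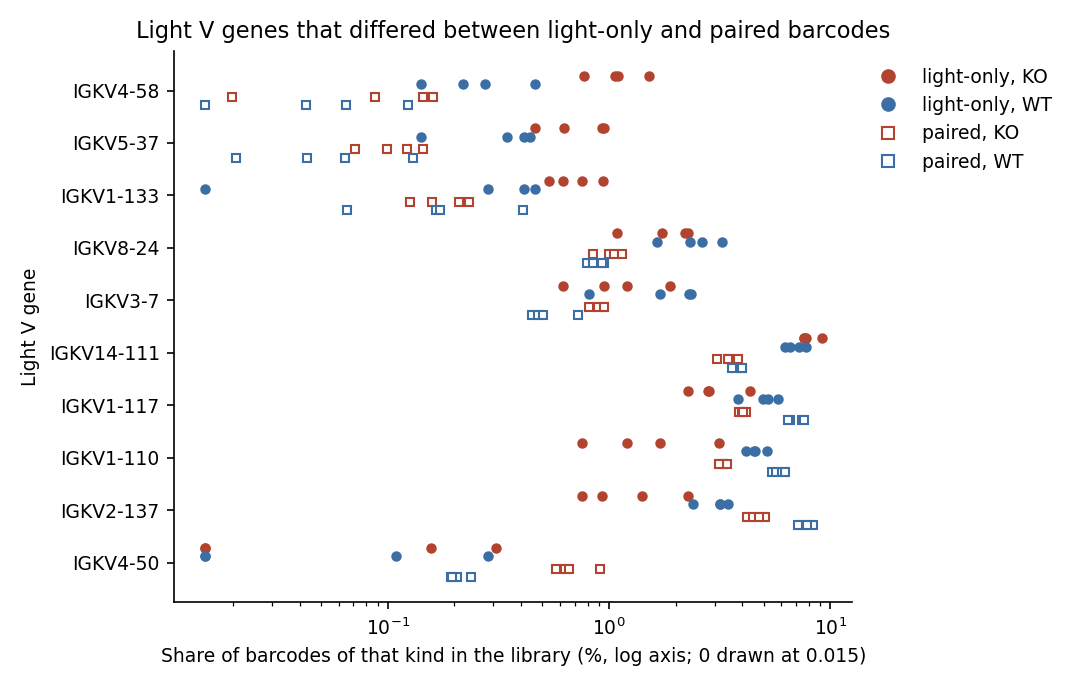
Share (%, log axis) of light-only (filled) and paired (open) barcodes that used each named light V gene called between them, per library, KO in red and WT in blue, ordered by log2 fold change; a share of 0 is drawn at the left edge. IGKV4-58 stands at the top with 2.98 and IGKV4-50 at the bottom with -1.95.

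Between genotypes, 9 of 69 light V genes tested differed among light-only barcodes (13%, with 5.8% higher and 7.25% lower in KO; edgeR). Higher in KO were IGKV8-19 (log2 1.90 ± 0.51), IGKV4-58 (1.91 ± 0.56), IGKV4-68 (1.85 ± 0.50) and IGKV8-21 (1.84 ± 0.61). Lower in KO were IGKV1-122 (-2.99 ± 0.68), IGKV3-4 (-2.79 ± 0.64), IGKV1-110 (-1.41 ± 0.29), IGKV2-137 (-1.14 ± 0.35) and IGKV1-117 (-0.68 ± 0.23). Their edgeR adjusted p-values lay between 0.00114 and 0.0333. Mean shares of paired barcodes had the same order between genotypes for each of these genes. IGKV8-19, for instance, was 1.39% of KO and 0.325% of WT paired barcodes, and IGKV1-117 4.00% and 7.00%. None of these genes was called for a light-only to paired ratio that differed between genotypes, a test that IGKV1-122 did not enter. By family, 3 of the 6 IGKV1 genes tested were called lower and none higher, and 2 of 14 IGKV4 and 2 of 6 IGKV8 genes were called higher and none lower.

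Among these, IGKV1-110 was carried by 9, 11, 20 and 4 light-only barcodes of KO libraries 1 to 4, and by 47, 36, 32 and 33 of WT libraries 1 to 4. That is 1.7% ± 1.04 in KO and 4.6% ± 0.412 in WT, and paired barcodes had 3.28% and 5.84%. IGKV3-4 was carried by 4, 0, 1 and 0 light-only barcodes in KO and by 12, 11, 18 and 5 in WT libraries, and was 0.461% of KO and 2.15% of WT paired barcodes. Leaving out WT replicate 1 left 4 of the 9 calls, IGKV1-110, IGKV1-122, IGKV3-4 and IGKV8-19, and counting each distinct chain once left IGKV1-110 alone. Among barcodes with more than 10 UMIs 17 genes were called, 9 of them higher and 8 lower in KO, which held all 9 of these.

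IGKV1-122 stood apart from the others. It was carried by 0, 0, 0 and 4 light-only barcodes of KO libraries 1 to 4 and by 8, 14, 11 and 11 of WT libraries 1 to 4, but by 10 KO and 15 WT paired barcodes in all. The 4 KO light-only barcodes each had at most 10 UMIs, and so did 14 of the 44 WT ones. It was too rare among paired barcodes to pass the count filter of the comparison with them. With no filter its log2 fold change of light-only against paired barcodes was 3.44 ± 0.44 (edgeR adjusted p = 1.31e-12). Paired barcodes leave out those with 2 light chains, so this fold change does not show how often the gene occurred with a heavy chain. Its chain with IGKJ5 was 1 of 2 light chains in 43 WT barcodes with 1 heavy chain, and its chain with IGKJ2 in 1.

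The light-only to paired ratio of a V gene was tested for a difference between genotypes, and 1 of 79 genes passed (1.27%). IGKV4-57 was 1.08% ± 0.439 of KO and 2.06% ± 0.51 of WT light-only barcodes, against 1.51% ± 0.189 and 0.839% ± 0.107 of paired ones. It was thus under the paired share in KO and over it in WT (difference of log2 fold changes -1.75 ± 0.42, edgeR adjusted p = 0.00271). It was the gene shared by every alternative but one, the count of distinct chains, which called 0 genes. Among barcodes with more than 10 UMIs 10 genes passed, 5 in either direction.

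J segments are described without a test. Of kappa light-only barcodes IGKJ1 made up 30.7% ± 2.55 in KO and 28.4% ± 1.01 in WT, IGKJ2 26.6% ± 1.5 and 33.1% ± 2.4, IGKJ4 14.9% ± 1.84 and 14.1% ± 1.46, and IGKJ5 27.9% ± 3.16 and 24.4% ± 2.23. Paired barcodes had the same order of IGKJ2 and IGKJ5 between genotypes, with 29.8% and 34.95% for IGKJ2 and 27.9% and 23.5% for IGKJ5. Lambda chains were 2.93% ± 0.733 of KO and 3.74% ± 0.777 of WT light-only barcodes (76 and 122 barcodes; exact permutation p = 0.286), against 3.07% and 6.01% of paired ones. The deficit of 1.21 ± 1.3 percentage points was seen in 7 of 8 libraries (exact sign-flip permutation p = 0.0391, adjusted p = 0.0439). It was no longer called without KO replicate 4 or any 1 WT library (exact permutation p = 0.0781). With each chain counted once, at unequal depth of the 2 kinds, it turned to +0.587. IGLV1 was carried by 56 KO and 94 WT, IGLV2 by 14 and 17 and IGLV3 by 6 and 11 light-only barcodes, and none of these genes was called in any of the 3 tests.

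Some light chains recurred in every library of a genotype with more light-only than paired barcodes there. The IGKV4-58 chain with IGKJ1 was carried by 5, 5, 7 and 6 light-only barcodes of KO libraries 1 to 4 and by 2 paired KO barcodes. It was also carried by 1 KO barcode with 1 heavy and 2 light chains, and by 0 light-only or paired WT barcodes. All 23 light-only barcodes had 12 to 231 UMIs and 1 identical unmutated V sequence. The IGKV1-122 chain with IGKJ2 was carried by 7, 8, 9 and 6 light-only barcodes of WT libraries 1 to 4, with 12 to 164 UMIs and 1 V sequence in all 30, by 6 paired WT barcodes, by 1 WT barcode with 1 heavy and 2 light chains, and by 0 light-only and 5 paired KO barcodes. The IGKV3-7 chain with IGKJ5 had 7, 3, 4 and 9 light-only and 3 paired WT barcodes, but 0 light-only and 7 paired KO barcodes.

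The few paired barcodes with such a chain carried different heavy chains. Those with the IGKV1-122 and IGKJ2 chain fell into 6 clones with 5 IGHV genes, and those with the IGKV4-58 and IGKJ1 chain into 2 clones, with IGHV1-64 and IGHV1-71. The IGKV13-84 chain with IGKJ2 was seen in 8 KO light-only barcodes and no paired barcode. The IGKV3-10 chain with IGKJ1 was seen in 15 light-only and 2 paired WT barcodes, with 0 light-only and 5 paired KO barcodes. It was also seen in 1 WT barcode with 1 heavy and 2 light chains and in 1 with 2 heavy chains. The IGKV8-24 chain with IGKJ2 recurred in both genotypes, in 31 light-only and 40 paired KO barcodes and in 26 light-only and 23 paired WT barcodes. A further 6 KO and 4 WT barcodes with 1 heavy and 2 light chains carried it, as did 3 KO barcodes with 2 heavy chains.

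Chains with at least 5 light-only barcodes and more light-only than paired barcodes were also picked in replicates 1 and 2. They were then counted in replicates 3 and 4 of the same genotype. The 4 KO chains had 26 light-only and 17 paired barcodes there, so that 60.5% were light-only, against 9.86% over all chains of these libraries. The 22 WT chains had 83 light-only and 63 paired barcodes, or 56.8% light-only against 13.5% over all. More light-only than paired barcodes were seen again for 2 of the 4 KO and 8 of the 22 WT chains. In the opposite genotype the 4 KO chains had 4 light-only and 23 paired barcodes, and the 22 WT chains 63 light-only and 329 paired ones. Libraries of a genotype share paired receptors, so replicates 3 and 4 are no independent check of chains picked in replicates 1 and 2.

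A different case was the IGKV1-122 chain with IGKJ5. It was carried by 1, 6, 2 and 5 light-only barcodes of WT libraries 1 to 4, each with 2 to 6 UMIs, by 5 paired WT barcodes and by 0 KO light-only or paired barcodes. Another 43 WT barcodes with 1 heavy chain carried it as 1 of 2 light chains.

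For light-only barcodes whose chain matched exactly 1 clone in the other libraries, the heavy chain of that clone was read, which was possible for 144 KO (5.63%) and 293 WT barcodes (9.13%). The same inference made on paired barcodes gave the true IGHV gene in 64.4% of KO and 66.8% of WT cases, so single inferences are uncertain. The inferred clones were class-switched for 19.2% ± 11.7 of light-only and 9.59% ± 0.855 of paired barcodes (higher in 7 of 8 libraries, exact permutation p = 0.0234, adjusted p = 0.0352). This was no longer called where each chain was counted once, at unequal depth (6.44, exact permutation p = 0.0703), or the clone had at least 3 cells (10.7, exact permutation p = 0.133). The switched share of light-only barcodes was 18.6% in KO and 19.9% in WT (exact permutation p = 0.857). The mean heavy-chain UMIs of the inferred clones were 35.3 ± 14.8 and 45.6 ± 11.8 (exact permutation p = 0.109).

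Among the inferred heavy chains 21 IGHV genes had enough barcodes to be tested, and 0 were called (0%; edgeR, with 0 at an unadjusted p under 0.05 and 0 called by DESeq2). Log2 fold changes ran from -1.36 ± 0.81 for IGHV12-3 to 0.64 ± 0.54 for IGHV1-53 (SE), so the test could not show small differences.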

How the data were processed

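Each library gave 1 table of filtered receptor contigs with the read and UMI counts per contig, deposited as raw counts without normalization. Per the submitters' processing notes these come from Cell Ranger (version not given in the sources used here), the mm10 build and R 4.3.1. Each library was deposited on its own, and its label does not say whether cells were pooled before loading. The 8 tables held 104649 contigs, and 754954 to 1155339 UMIs per library. The number of libraries limits the precision, and intervals cover counting error only.

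Barcodes were classed by their heavy and light contigs, with no further filter, and no doublet caller was run. A light chain was its V gene, J gene and CDR3 nucleotides. Paired barcodes were joined into clones where IGHV, IGHJ, light V, light J and the length of the heavy CDR3 were the same and single linkage found heavy CDR3s at least 0.85 identical. The germline of an IGKV gene was its most common framework 1 to framework 3 sequence over at least 20 clones, which gave 77 of 94 genes and scored 5527 of 5572 kappa light-only barcodes.

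Single values were compared over libraries, KO with WT by exact two-sided permutation over 70 assignments (smallest p 0.0286), and light-only with paired barcodes by exact sign flips of 8 within-library differences (smallest p 0.00781). p-values were adjusted by Benjamini and Hochberg within 9, 9 and 3 tests, and called under 0.05. Barcodes per V gene were tested with edgeR 4.0.16 in R 4.3.3 (quasi-likelihood, library size set to all barcodes of that kind in the library), with DESeq2 1.42.0 as an alternative. Its filter on low counts used a minimum count of 2 instead of the default of 10, a change made after the files were seen. The step was tested on simulated data. Everything else was computed in Python 3.11.15 (NumPy 2.4.6, pandas 2.3.3) and drawn with matplotlib 3.10.9.

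The members and lists were chosen with earlier results of these data known. The text names the 10 V genes most used by light-only barcodes, the lambda and IGKJ genes, up to 10 called genes by smallest p in each comparison, and the 5 chains with most light-only barcodes in either genotype. The division at 10 UMIs, the match within a library and the recurrent chains were added after the data were seen. Coordinates are those of RefSeq on GRCm38.p6, the assembly of mm10, where 98 of 98 light V genes matched by symbol. Same-numbered KO and WT libraries were checked for pairing by the correlation of their deviations from the group means over 65 V genes. It was -0.234, 0.0268, -0.00223 and 0.0659 for numbers 1 to 4, so the numbers were not taken as pairs.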

Additional observations from a re-analysis of the deposited data

Results flagged for a closer look

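In a group of 4 libraries a value was set apart by Dixon's ratio, which by chance marks about 1 in 20 groups. One value was marked, the unmutated share of paired WT barcodes in replicate 3, at 75.68%, against 74.5 to 74.7% in the other WT libraries. The unmutated share of light-only barcodes in that library, 60.8%, lay beside that of replicate 2, also 60.8%.

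The light-only to paired ratio of IGKV4-57 differed between genotypes by the interaction test. The difference of log2 fold changes was -1.752 (edgeR adjusted p = 0.00271), with 28 light-only barcodes in KO and 65 in WT, against 330 and 157 paired ones. Of its light-only barcodes 21 in KO and 46 in WT had more than 10 UMIs.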

How the results depend on the processing

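Of the comparisons and counts 290 values under alternatives were classed as unchanged and 28 fell short of the threshold. Another 10 newly passed it, 9 moved, and 5 changed sign where either value was called. A value called in neither setting was classed as unchanged even where its sign changed. Inferred switching of light-only barcodes, for instance, was 18.6% in KO and 19.9% in WT, but 19.8% and 17.3% with each chain counted once. Counts of called genes were classed as unchanged where they stayed near the main count. Of the named V genes 241 were classed as unchanged, 44 fell short and 2 changed sign. With the replicate block, whose smallest p for 4 pairs is 0.125, KO minus WT was -3.785 for the light-only share, -0.1744 for mutation, 13.43 for the unmutated share and 5.807 for the match to the own genotype, none called; the block left 8 called V genes instead of 9, and only replicate number 4 correlated best with its own number. Other KO minus WT values no longer called were -2.026 for the light-only share at most 10 UMIs, and for the match 1.29 with at most 1 CDR3 mismatch, 4.223 over 10 UMIs and 6.738 at most 10. Newly called were the excess of own over opposite matches, at 2.892 with at least 5 UMIs, 3.591 with each chain once and 2.764 over 10 UMIs (1.325 to 2.944 with 1 library left out), and the heavy UMIs of inferred clones, at 33.79 with at least 3 cells.

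For light-only minus paired, counting each distinct chain once compared 2 kinds of barcode at unequal depth. It gave 0.5874 for lambda, 0.01034 for mutation, 0.01593 for the unmutated share and 9.611 for the match. It gave -3.596 for the excess and 6.443 for inferred switching, and log2 fold changes of 0.1902 for IGKV1-117 and 0.05457 for IGKV2-137. Over 10 UMIs lambda was -0.6068 and the excess -0.06419; at most 10 UMIs mutation was 0.03966, the match -1.679 and the excess 2.04. The excess was also not called with at least 5 UMIs (0.9966), with identical framework 1 to 4 (0.7309) or with 1 mismatch (1.089), and switching not with at least 3 cells (10.71). With 1 library left out lambda ranged from -1.498 to -0.9532, the excess from 1.369 to 2.178, and inferred heavy UMIs from -14.29 to -7.9. The difference of differences was called for UMIs with each chain once (-10.94), for mutation at 20 to 80 UMIs (-0.07941) and for the match without an IGKV6-13 chain (2.979) that 5 light-only and 90 paired barcodes of WT replicate 2 carried.

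Called V genes between KO and WT numbered 1 with each chain once, 17 over 10 UMIs and 4 to 10 with 1 library left out; between light-only and paired 3 with each chain once; for their interaction 4 with TMM factors, 0 with each chain once (3 at an unadjusted p under 0.05), 10 over 10 UMIs and 1 to 3 with 1 library left out. The excess of matches within a library of high-UMI light-only barcodes was 8.607 with the limit set at 5 UMIs. The cause of these changes was not tested. With 4 libraries a genotype no p under 0.0286 is possible, the libraries of a genotype share clones, and inferred clones rest on few barcodes.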
